A study of Mus musculus with 4 samples.

Results

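The transcripts described here are those of 10 genes of microbe sensing by Toll-like receptors: the receptors Tlr2, Tlr3, Tlr4 and Tlr5, the receptor partners Cd14 and Ly96, the adaptor Myd88, the dampers Tollip and Sigirr, and the inhibitor gene Nfkbia. Members were taken as the probe sets that the platform annotation assigns to these symbols, which gave 19 probe sets of 45037 (controls left out) and 10 genes of 18193 with a name. The study set 4 germ-free C57/BL6 mice, which live without microbes, against 4 C57/Bl6 control mice, called wild type in the labels. Epithelial cells of proximal colon and of ileum were cut by laser from tissue sections. RNA of about 16000 cells, about 4000 from each of the 4 mice, was pooled into 1 array for each of the 4 groups: germ-free colon, wild type colon, germ-free ileum and wild type ileum. Neither age nor sex is stated, and hematoxylin staining is mentioned in the labels for the germ-free samples alone.

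Toll-like receptors are membrane proteins that bind molecules shared by many microbes. TLR2, paired with TLR1 or TLR6, binds lipoproteins, TLR4 binds lipopolysaccharide through its partner LY96 (MD-2) with CD14 as a carrier, TLR5 binds flagellin and TLR3 binds double-stranded RNA. All of them but TLR3 signal through MYD88, and the path ends in release of the transcription factor NF-κB from its inhibitor IκBα, the product of Nfkbia, which is itself an NF-κB target gene. In the gut epithelium this system faces the bacteria of the lumen, and TOLLIP and SIGIRR are known to restrain it.

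Since each group is a single array, the differences carry no replicate check or p-value, and precision is limited by that number. A value is a probe set intensity after quantile normalization, and a gene is given by its brightest probe set. Values below an intensity of 62.4, the median over all arrays, were treated as lying at that floor, and a change against such a value is a lower bound, written "at least". The only measure of technical error is the disagreement between different probe sets of the same gene, whose SD was 0.26 log2 (1.19-fold) for germ-free against wild type in colon and 0.20 log2 (1.15-fold) in ileum over 1800 genes with a pair of bright probe sets. Both probe sets of these genes read above 259, the 75th percentile of intensities, on all 4 arrays, so the error of dimmer values was not measured. The SD holds nothing of the spread between mice. The 11 epithelial markers, such as Epcam, Cdh1 and Vil1, were above the floor on all 4 arrays and none differed by 2-fold in any comparison. In the control probe sets as deposited, the 5' signal relative to the 3' signal of Gapdh was -0.48 log2 (colon) and -1.10 log2 (ileum) apart between germ-free and wild type, and that of Actb -0.12 and -1.20. The 18S ribosomal RNA control probe sets were -1.36 log2 (colon) and -0.61 log2 (ileum) apart, so RNA quality and the germ-free state cannot be told apart.

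The receptors Tlr2, Tlr4 and Tlr5 and the co-receptor Cd14 differed between germ-free and wild type colon by close to 2-fold or more, in both directions, while Tlr3, Ly96, Myd88, Tollip, Sigirr and Nfkbia differed there by at most 1.22-fold. With a threshold of 2-fold, Tlr4 was the 1 member called higher in germ-free colon, and 0 of the 10 were called lower. Over all 11746 genes measured in colon 1.29% were called higher and 3.23% lower, 4.52% in all. In pooled material fewer cells of a type and less RNA per cell cannot be told apart. The median change of the 10 members was 0.00 log2 and that of all measured genes -0.01. In ileum 0 of the 8 measured members were called in either direction, where 0.23% of 11750 genes were called higher and 0.698% lower, 0.928% in all.

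**Figure D1:**
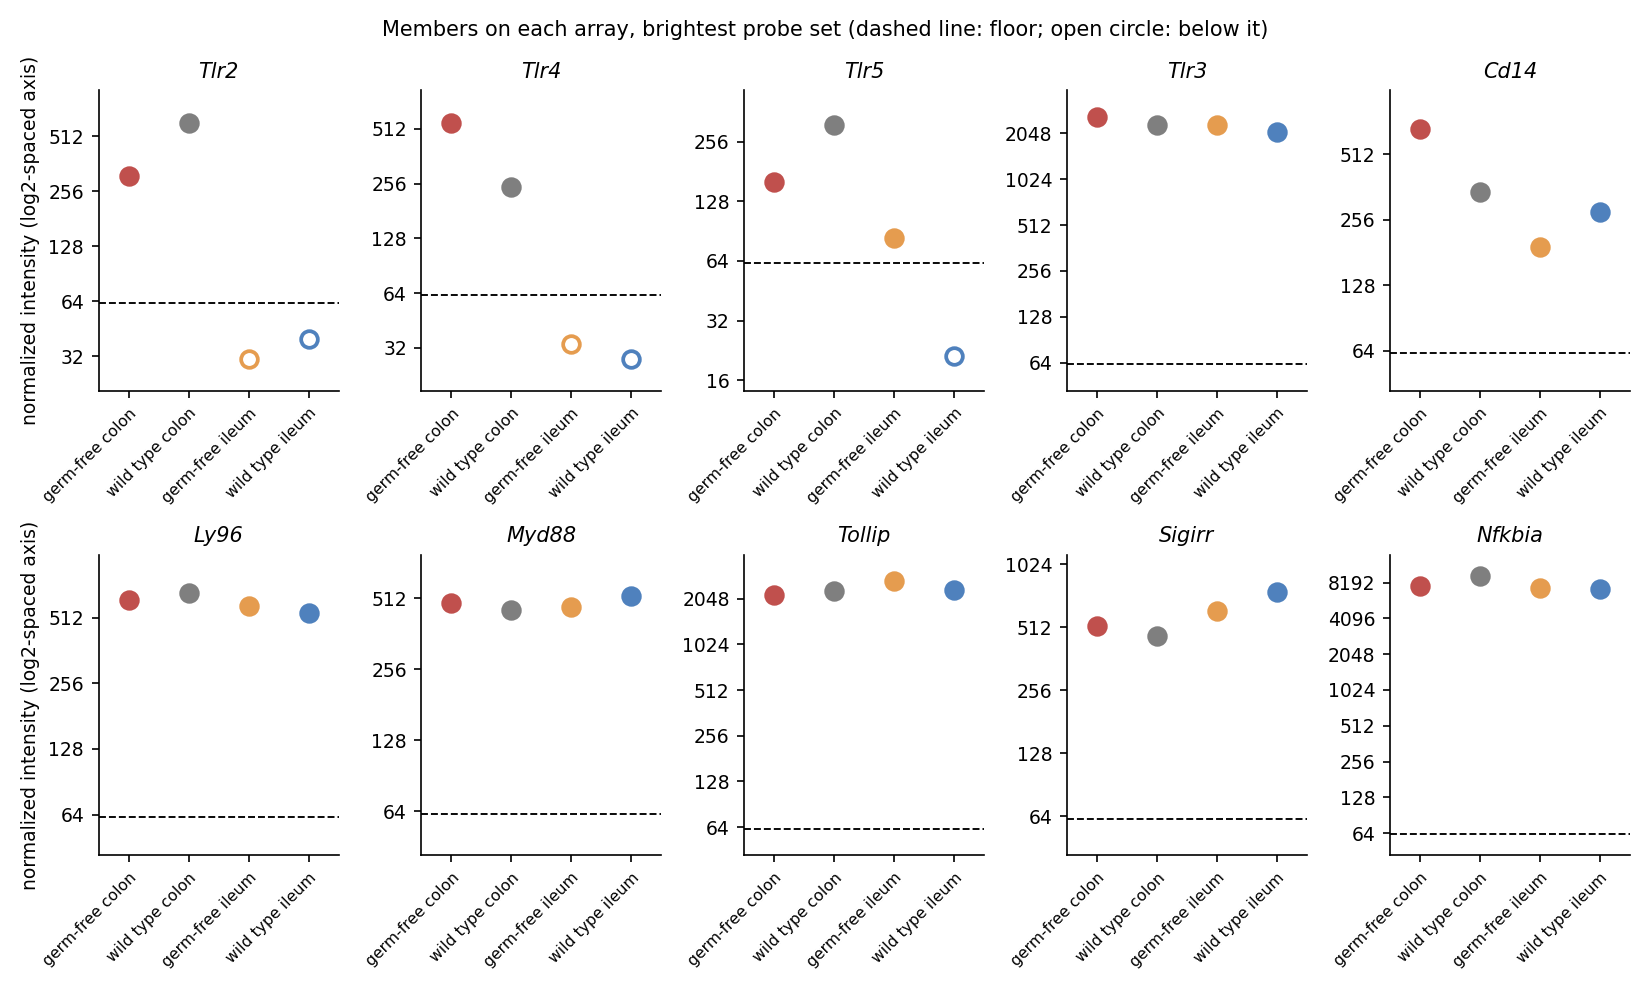
Normalized intensity of the brightest probe set of each member on each of the 4 arrays, on a log2-spaced axis that differs between panels; the dashed line is the floor of 62.4, open circles lie below it, and each point is 1 array. Tlr2 and Tlr4 are above the floor in colon alone, while Ly96, Myd88, Tollip, Sigirr, Tlr3 and Nfkbia stay well above it on all 4 arrays.

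Tlr4, the lipopolysaccharide receptor, read 556 on the germ-free colon array, against 245 on the wild type colon array. It read 33.7 on the germ-free ileum array and 27.8 on the wild type ileum array, both below the floor. The receptor was thus read in colon alone, and was higher there without microbes. The colon difference was 2.27-fold (log2 change 1.18), 4.62 times the SD between probe sets. The wild type value lies a little below 259, the level that the probe sets behind that SD exceed. Of the measured genes 0.766% were at least as far higher, and so were 1% of the 3786 genes whose brighter array was within 2-fold of that of Tlr4. Tlr4 had 4 probe sets. The next brightest ones read 149 against 85.0 (1.75-fold higher) and 126 against 73.8 (1.70-fold higher) on the germ-free and wild type colon arrays, and the fourth was below the floor on all 4 arrays, between 2.27 and 7.33. All 3 measurable probe sets were thus higher on the germ-free colon array, but only the brightest passed 2-fold, and the mean of all 4 gave a log2 change of at least 0.46, with the wild type mean below the floor, and 0.79 (1.72-fold) with no floor.

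Cd14, the lipopolysaccharide carrier that hands its ligand to the TLR4 complex, read 673 on the germ-free colon array, against 342 on the wild type colon array. In ileum it read 192 on the germ-free array, against 278 on the wild type array. In colon Cd14 was higher without microbes, by 1.97-fold (log2 change 0.98). In ileum it was 1.44-fold lower (-0.53), short of the 1.5-fold asked of both regions before a gene was set down as going opposite ways. The changes are 3.81 and 2.71 times the SD between probe sets. The germ-free ileum value lies below 259, where that SD was not measured. Of the measured genes 1.48% were at least as far higher in colon and 4.07% at least as far lower in ileum. Among genes whose brighter array was within 2-fold of that of Cd14 the shares were 1.74% and 5.95%. In the values as deposited the colon change was 1.15 log2, past 2-fold, and with a floor at the 75th percentile the ileum change was -0.10. The colon and ileum changes lay 1.51 log2 apart, a difference that was not tested. Of 11065 genes measured in both regions 7.14% had changes at least 2-fold apart. Cd14 has 1 probe set, so no other probe set checks it.

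Ly96, the subunit of the TLR4 complex that binds lipid A, differed little. It read 617 on the germ-free colon array, against 663 on the wild type one, and 576 on the germ-free ileum array, against 537 on the wild type one. The differences, -0.11 log2 (colon) and 0.10 log2 (ileum), were both smaller than the SD between probe sets. The colon difference changed sign with the scaling, to 0.12 with median scaling and 0.09 as deposited. Ly96 was well above the floor on both ileum arrays, where Tlr4 was not.

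Tlr2, the lipoprotein receptor, read 309 on the germ-free colon array, against 607 on the wild type colon array. It read 31.0 on the germ-free ileum array and 39.96 on the wild type one, both below the floor. It was thus lower without microbes in colon, by 1.97-fold (log2 change -0.98, 3.82 times the SD between probe sets). Of the measured genes 3.48% were at least as far lower, close to the share at least 2-fold lower. Values as deposited gave -0.71 and median scaling -0.69. Tlr2 has 1 probe set.

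Tlr5, the flagellin receptor, read 160 on the germ-free colon array, against 310 on the wild type colon array, and was 1.93-fold lower (log2 change -0.95, 3.72 times the SD). The germ-free colon value lies below 259, where that SD was not measured. Of the measured genes 3.76% were at least as far lower in colon. So were 6.29% of the 4021 genes whose brighter array was within 2-fold of that of Tlr5. In ileum Tlr5 read 83.3 on the germ-free array, against 21.2 on the wild type array, which lies below the floor. That makes it at least 1.33-fold higher in germ-free ileum, a bound set by the floor, since without a floor the log2 change was 1.98. The germ-free value in ileum lies near the floor. With a floor at the 75th percentile of intensities the colon change was -0.26, since the germ-free value is then at the floor. Tlr5 also has 1 probe set.

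**Figure D2:**
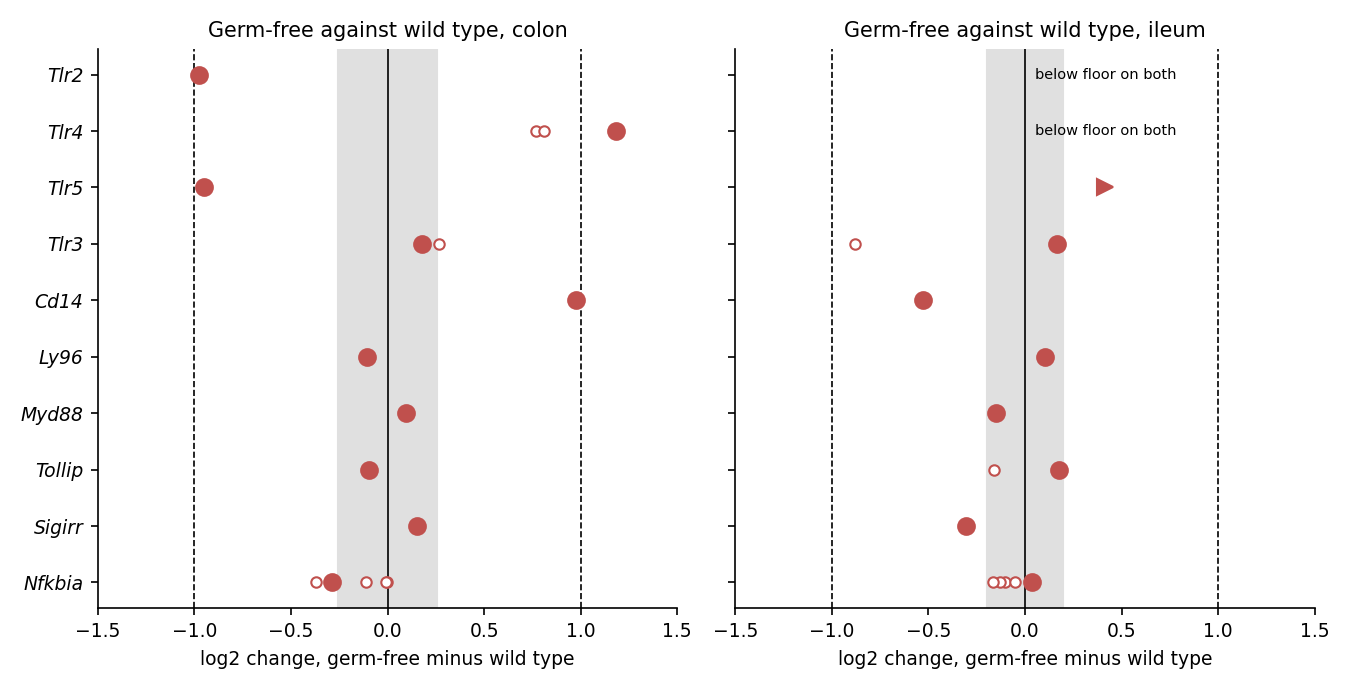
Log2 change, germ-free minus wild type, of each member in colon (left) and ileum (right); filled points are the brightest probe set, open points the gene's other measurable probe sets, a triangle is a lower bound, the grey band is ±1 SD between probe sets of the same gene and dashed lines mark 2-fold. Tlr4 and Cd14 lie near 1 and Tlr2 and Tlr5 near -1 in colon, while in ileum none of the filled points reaches 2-fold.

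Tlr3, the receptor for double-stranded RNA, read 2613 on the germ-free colon array and 2313 on the wild type one, and 2334 on the germ-free ileum array and 2078 on the wild type one. Its brighter probe set thus varied little, and germ-free values were higher by 0.18 log2 in colon and 0.17 in ileum, less than the SD. Its second probe set was dimmer. That one read 220 on the germ-free colon array against 183 on the wild type one, and 146 on the germ-free ileum array against 269 on the wild type one (log2 change -0.88). The probe sets of Tlr3 therefore disagree in ileum. The brighter one is of a type that can match several transcripts.

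Myd88, the adaptor shared by most of these receptors, read 490 on the germ-free colon array, against 458 on the wild type one, and 470 on the germ-free ileum array, against 522 on the wild type one. The changes, 0.10 log2 (colon) and -0.15 log2 (ileum), were below the SD between probe sets. All 4 arrays lay within 1.14-fold of each other. Sigirr, a receptor-like inhibitor of the IL-1 and Toll-like receptor pathway, read 518 in germ-free colon, against 466 in wild type colon, and 615 in germ-free ileum, against 760 in wild type ileum. Its changes were 0.15 log2 in colon, under the SD, and -0.31 in ileum, 1.56 times the SD. Tollip, a ubiquitin-binding damper of receptor signalling, read 2174 in germ-free colon, against 2321 in wild type colon, and 2663 in germ-free ileum, against 2355 in wild type ileum. Both Tollip changes (-0.09 and 0.18 log2) were below the SD. Its second probe set read between 54.4 and 74.1 on the 4 arrays, near the floor.

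Nfkbia, whose product holds NF-κB in the cytoplasm, read 7678 on the germ-free colon array, against 9365 on the wild type one, and 7392 on the germ-free ileum array, against 7220 on the wild type one. The changes were -0.29 log2 in colon (1.12 times the SD) and 0.03 in ileum. Nfkbia had 5 probe sets, all above the floor on all 4 arrays. In colon they gave log2 changes of -0.37, -0.29, -0.11, -0.01 and -0.00, so 3 were within the SD and 2 a little beyond it. This NF-κB target gene was therefore within 1.29-fold between germ-free and wild type by any of its probe sets in colon.

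The bases before the annotated start of Nfkbia are shown because that promoter is the feedback point of the pathway, and those of Myd88 because the adaptor is common to most members. Sequences are RefSeq's, build GRCm38.p6, and 6 of the 10 members had an entry (Myd88, Nfkbia, Tlr2, Tlr3, Tlr5 and Tollip). They are written 5′ to 3′ on the gene's strand, 250 bases each, chr12:55492648-55492897 (minus strand) for Nfkbia and chr9:119340019-119340268 (minus strand) for Myd88. Capitals mark the match to the NF-κB consensus of 10 letters in Nfkbia and to the core of the interferon-stimulated response element in Myd88, both searched on both strands.
Nfkbia: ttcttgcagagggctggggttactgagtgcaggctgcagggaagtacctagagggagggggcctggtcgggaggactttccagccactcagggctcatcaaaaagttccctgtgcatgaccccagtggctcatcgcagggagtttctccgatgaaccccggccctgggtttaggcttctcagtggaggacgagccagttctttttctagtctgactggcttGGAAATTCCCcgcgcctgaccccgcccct
Myd88: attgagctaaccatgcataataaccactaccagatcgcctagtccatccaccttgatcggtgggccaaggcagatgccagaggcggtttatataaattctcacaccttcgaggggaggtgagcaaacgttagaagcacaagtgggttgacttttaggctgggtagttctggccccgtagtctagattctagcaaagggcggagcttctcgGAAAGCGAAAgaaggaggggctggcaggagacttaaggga

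Of all 32851 promoters, each with 250 bases before and 50 after the start, 4.51% held the NF-κB consensus and 3.44% the interferon element core, and of the 6 members 3 held the NF-κB consensus and 1 the interferon element core. The other matches to the NF-κB consensus lay in Tlr2, with overlapping matches at -173 and -172 and another at -8 relative to the start of the listed transcript, and in Tlr3 at -211. The windows of 30 bases around them are chr3:83841762-83841791 and chr3:83841597-83841626 (minus strand) for Tlr2 and chr8:45410572-45410601 (minus strand) for Tlr3, with 1 match each in capitals.
Tlr2 distal: taggacacctGGGGAATTCCcacacggagc
Tlr2 proximal: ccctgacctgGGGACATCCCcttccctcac
Tlr3: agttgtttctGGGAGTTTCCtgcttttgag
A match is a description of letters, and binding was not measured here. In germ-free colon Tlr2 was 1.97-fold lower, and Nfkbia and Tlr3, which hold the same motif, were within 1.22-fold by their brightest probe sets. Another Nfkbia probe set was 1.29-fold lower. Tlr5, with no match to the motif in this window, read 1.93-fold lower. Whether the motif has a part in these values was not tested.

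Between regions the receptors divided in another way. On the germ-free arrays 3 of the 10 members were called lower in ileum than in colon (Tlr2, Tlr4 and Cd14) and 0 higher, where 5.88% of 11986 genes were called lower and 7.37% higher, 13.2% in all. On the wild type arrays 3 were called lower in ileum (Tlr2, Tlr4 and Tlr5) and 0 higher, where 5.93% of 12000 genes were called lower and 6.04% higher, 12% in all. The regional comparisons and the germ-free comparisons share arrays. The median over the members was -0.13 log2 on germ-free and -0.30 on wild type arrays, against 0.04 and -0.01 over all measured genes.

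Tlr2 was at least 4.94-fold lower in ileum than in colon on the germ-free arrays (31.0 against 309) and at least 9.73-fold lower on the wild type arrays (39.96 against 607). Tlr4 was at least 8.90-fold lower in ileum on the germ-free arrays (33.7 against 556) and at least 3.92-fold lower on the wild type arrays (27.8 against 245). Both receptors were above the floor in colon alone, in either state. The Tlr4 bounds depend on its probe set. The next brightest one by mean level gave bounds of -1.01 log2 on germ-free arrays (27.7 against 126) and -0.24 log2 on wild type arrays (26.5 against 73.8). The wild type colon value of that probe set lies near the floor, which keeps the bound small. With a floor at the 75th percentile the bound for Tlr5 on the wild type arrays was -0.26 log2 and that for Tlr2 on the germ-free arrays -0.26 log2. Tlr5 was 1.93-fold lower in ileum on the germ-free arrays (83.3 against 160), short of 2-fold, and at least 4.96-fold lower on the wild type arrays (21.2 against 310). Cd14 was 3.50-fold lower in ileum on the germ-free arrays (192 against 673) and 1.23-fold lower on the wild type arrays (278 against 342). Its regional difference was thus past 2-fold on the germ-free arrays alone. That difference of differences is the same as the one given for Cd14 above and was not tested. Of the other members Sigirr stood furthest from 0, 1.63-fold higher in ileum on the wild type arrays (760 against 466) and 1.19-fold higher on the germ-free arrays (615 against 518). By their brightest probe sets Tlr3, Ly96, Myd88, Tollip and Nfkbia lay within 1.30-fold between regions in both states. The second probe set of Tlr3 was 1.51-fold lower in ileum on the germ-free arrays (146 against 220) and 1.47-fold higher on the wild type arrays (269 against 183), where the brighter one was lower. Other Nfkbia probe sets reached 1.34-fold lower in ileum in each state.

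**Figure D3:**
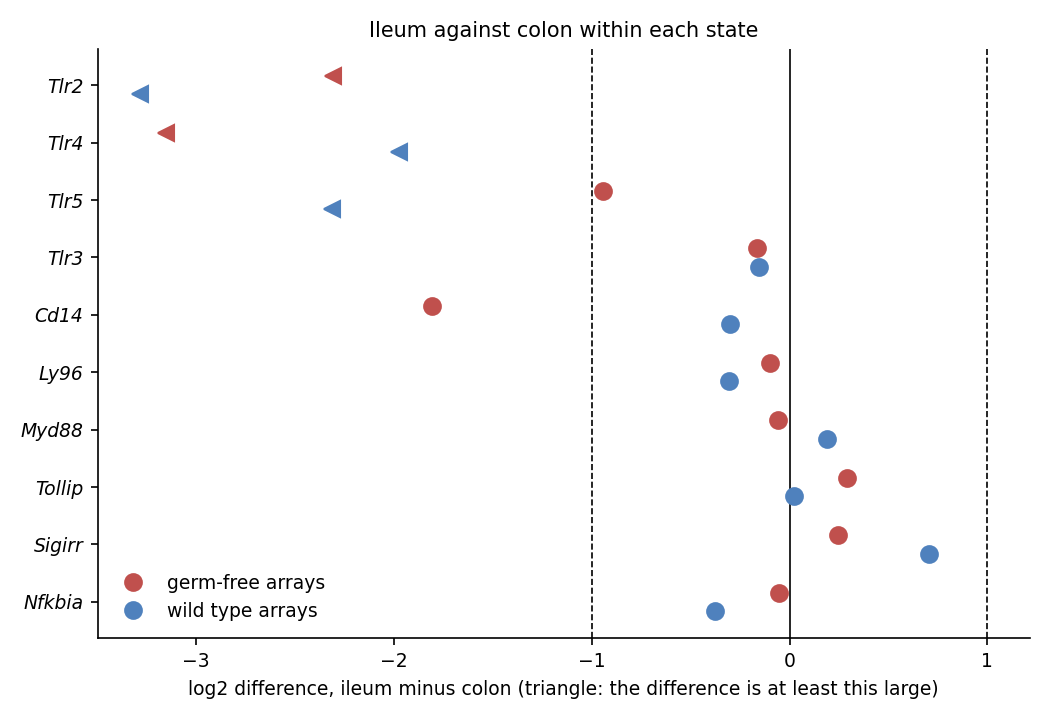
Log2 difference, ileum minus colon, of the brightest probe set of each member on the germ-free arrays (red) and the wild type arrays (blue); triangles are lower bounds on the size, since the ileum value is below the floor, and dashed lines mark 2-fold. Tlr2 and Tlr4 lie left of -1 in both states, Tlr5 on the wild type arrays and Cd14 on the germ-free arrays.

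The other Toll-like receptors add a colon partner for TLR2. Tlr1, whose product pairs with TLR2 for lipoproteins, read 116 on the germ-free ileum array against 1944 on the germ-free colon array (16.7-fold lower in ileum), and 162 on the wild type ileum array against 2818 on the wild type colon array (17.4-fold lower). It was 1.45-fold lower on the germ-free than on the wild type colon array (log2 change -0.54) and 1.39-fold lower in germ-free ileum (-0.48). Tlr6, the other partner, and Tlr7 were below the floor on all 4 arrays. Tlr8, Tlr9, Tlr12 and Tlr13 read between 50.5 and 127 on the arrays, and none differed by 2-fold.

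The wider pathway was followed in 9 lists of 119 symbols, of which 106 matched a gene here. In colon 84 of them were measured, 0 were called higher and 4 lower on the germ-free array, with a median of -0.05 log2. In ileum 0 of 85 were past 2-fold in either direction, with a median of -0.08. These counts stand beside the same shares of all genes given above, of which the colon share of lower genes was 3.23%. The lower colon genes were Cd300lf, an inhibitory receptor (99.1 against 283, 2.85-fold), Pparg, a nuclear receptor that restrains NF-κB targets (876 against 2215, 2.53-fold), Cgas, a cytosolic DNA sensor (148 against 325, 2.20-fold), and Tnfaip2, an NF-κB target (24.7 against 133, at least 2.13-fold).

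By role, no adaptor or kinase passed 2-fold in germ-free colon. Of 15 measured downstream kinases and ubiquitin ligases 11 had a value above 0 and 4 below, with a median of 0.29 log2. The largest change was in Peli2, a ubiquitin ligase (120 against 68.6, 1.75-fold higher). Irak1, a kinase recruited by MYD88, read 545 against 333 and Traf6, the ligase that follows it, 447 against 288. Tirap, the adaptor that bridges MYD88 to TLR2 and TLR4, read 741 against 427 (1.74-fold higher), and Ticam1, the adaptor of TLR3, read 212 against 191. In ileum the kinase list had a median of 0.04, with 8 values above 0 and 7 below, the largest in Tab1 (309 against 406). Tirap read 285 against 327 there. In colon the kinase median was 0.28 log2 as deposited and 0.31 with median scaling, where the medians of all measured genes were 0.09 and 0.12.

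Among transcription factors of the pathway 0 of 7 measured in colon passed 2-fold. Relb, an NF-κB subunit, read 887 on the germ-free colon array against 523 on the wild type one (1.70-fold higher), but 783 against 1050 in ileum (1.34-fold lower). Rela, the main partner of IκBα, read 928 against 967 in colon and 922 against 954 in ileum. Of the negative regulators 17 were measured in each region, with medians of -0.32 log2 in colon and -0.09 in ileum. In colon that median depended on the scaling, at -0.10 as deposited and -0.07 with median scaling. Tnfaip3, which encodes the deubiquitinase A20, read 1027 against 714 in colon and 789 against 842 in ileum. In ileum the largest change of that list was in Rnf216, a ubiquitin ligase (122 against 189, 1.55-fold lower).

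NF-κB target genes had values on both sides of 0. Of 26 genes 17 were measured in colon, 6 with a value above 0 and 11 below, with a median of -0.18 log2, and 18 in ileum, 8 above and 10 below, with a median of -0.12. The chemokine gene Cxcl1 read 140 against 265 in colon and 332 against 294 in ileum. Pigr, which encodes the carrier of IgA across the epithelium, read 7457 against 8752 in colon and 5396 against 8144 in ileum. Ptgs2, the inducible cyclooxygenase, was at least 1.85-fold higher in germ-free ileum (115 against 46.5) but at least 1.55-fold lower in germ-free colon (57.4 against 96.6). In each region its lower value was below the floor. Many classical targets, among them Tnf, Il1b, Il6, Cxcl2, Icam1, Nos2 and Lcn2, read no more than 92.0 on any array.

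Accessory, sensor and interleukin receptor lists also held few differences. Unc93b1, the transporter of the intracellular Toll-like receptors, read 103 against 186 in colon (1.81-fold lower), and Cnpy3, a Toll-like receptor chaperone, 96.0 against 122 in ileum (1.27-fold lower). Among other microbe sensors Clec7a, the β-glucan receptor Dectin-1, read 109 against 153 in ileum (1.40-fold lower). In the IL-1 and IL-18 receptor family, which shares the signalling domain of Toll-like receptors, Il1rap read 77.2 against 120 in colon (1.56-fold lower) and Il18rap 73.0 against 81.8 in ileum.

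**Figure D4:**
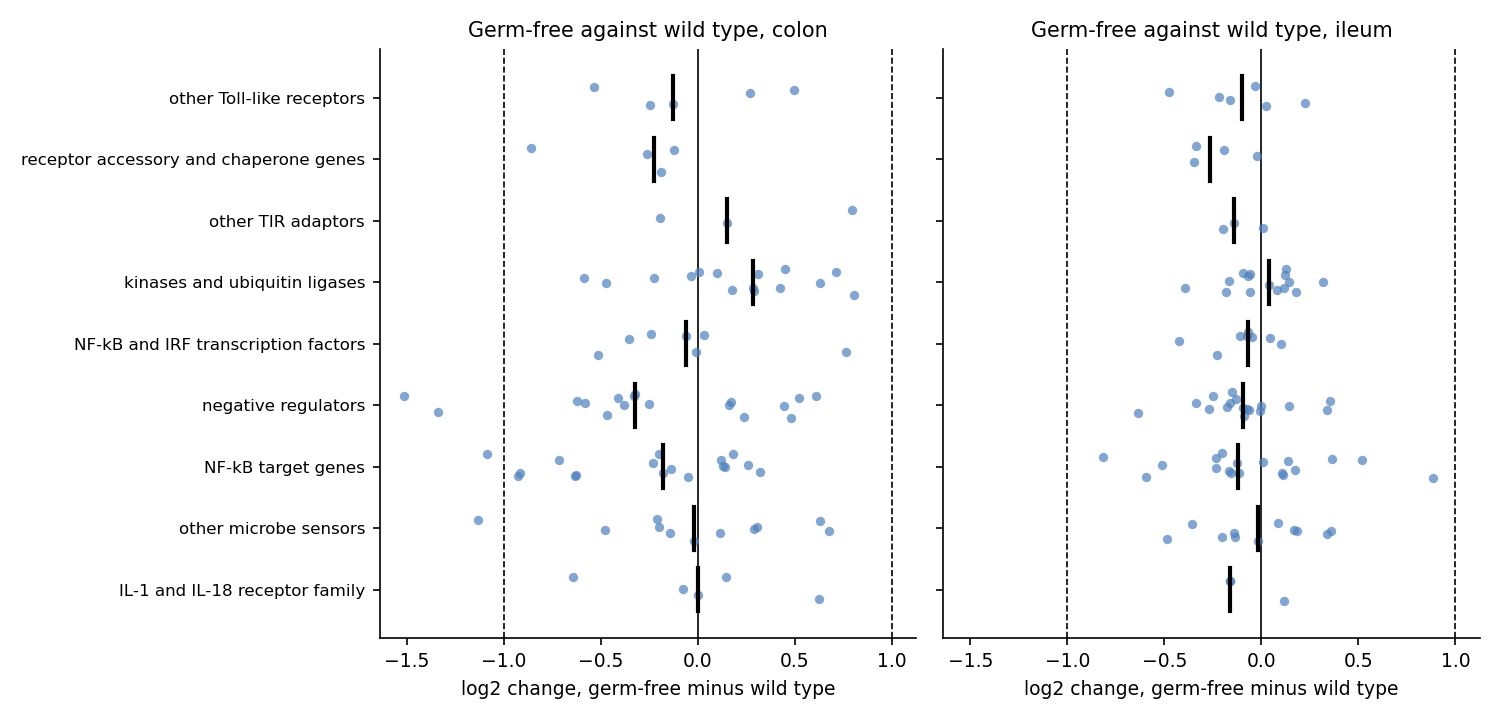
Log2 change, germ-free minus wild type, of each measured gene (point) of the 9 wider pathway lists in colon (left) and ileum (right); the black bar is the list's median and dashed lines mark 2-fold. In colon 4 genes lie left of -1 and none right of 1, and in ileum none lies past either line.

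Between regions the wider lists held more differences than between states, and so did all measured genes. On the germ-free arrays 6 of 85 measured genes were called higher and 7 lower in ileum than in colon, beside 7.37% and 5.88% of all measured genes. On the wild type arrays 9 of 84 were higher and 8 lower, beside 6.04% and 5.93%. The largest difference in the lists was that of Pik3ap1, an adaptor with a signalling domain like that of the receptors. It read 1510 in germ-free ileum against 42.2 in germ-free colon (at least 24.2-fold higher) and 1503 in wild type ileum against 71.4 in wild type colon (21.0-fold higher). Pparg was 4.98-fold lower in ileum on the germ-free and 11.8-fold lower on the wild type arrays, Irf7 2.22-fold and 3.39-fold lower, and Atf3 2.03-fold and 2.57-fold lower. Lrrc59, which encodes a membrane protein of the endoplasmic reticulum, was 2.64-fold and 2.47-fold higher in ileum. On the germ-free arrays Tirap was also 2.60-fold and Nfkbiz 2.07-fold lower, and Cxcl1 2.38-fold and Cgas 2.19-fold higher in ileum. On the wild type arrays Bcl3 was 2.84-fold, Naip5 2.47-fold, Ddx58 2.44-fold and Relb 2.01-fold higher, and Dok1 2.49-fold and Cd300lf 2.54-fold lower. Gadd45b was 2.68-fold lower in ileum on the germ-free and 2.85-fold lower on the wild type arrays.

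Cd14, Tlr2, Tlr4 and Ly96 are also known in myeloid cells. Of 16 myeloid markers 9 were measured in colon. On the germ-free colon array 0 were called higher and 1, Adgre1, lower (221 against 472), beside 1.29% and 3.23% of all measured genes. The summed intensity of the 16 markers was 2502 on the germ-free colon array, against 3460 on the wild type one. In ileum it was 4635 on the germ-free array, against 6188 on the wild type one. Lyz2, which Paneth cells also express, and Cd74, which is not specific to myeloid cells, carried much of the ileum sums. Without them the sums were 1983 against 2543 in colon and 2745 against 2661 in ileum, so the direction of the ileum sum turned. The brightest marker left there was Csf1r, which read 1325 on the germ-free ileum array against 1038 on the wild type one. Marker by marker, 3 of the 11 measured in ileum had a value above 0 and 8 below, with a median of -0.29 log2. In colon 1 was above 0 and 8 below, with a median of -0.34. Cd68, Itgax, C1qa, S100a8 and S100a9 were below the floor on all 4 arrays. The part of myeloid cells in the values of Tlr2, Tlr4, Cd14 and Ly96 was not tested.

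Markers of other cells differed too. The plasma cell genes Jchain and Igha were 7.87-fold and 9.19-fold lower in germ-free than in wild type colon, and 6.83-fold and 4.21-fold lower in germ-free ileum. Other genes of that list did not follow them in colon, with log2 changes of -0.07 (Mzb1), 0.08 (Xbp1) and 0.41 (Sdc1). In ileum these were -0.36, -0.16 and 0.07, and Cd79b was at least 1.55-fold lower. The median over the measured genes of the list was -0.07 log2 in colon and -0.50 in ileum. Endothelial markers summed to 415 on the germ-free colon array, against 887 on the wild type one. Of these markers 2 of 4 measured were called lower, beside 3.23% of all measured genes. At or below the floor were 8 of 10 T and intraepithelial lymphocyte markers on the germ-free colon array, against 6 on the wild type one. In ileum these counts were 7 and 5. Of the lymphocyte markers measured, 2 of 4 were called lower in germ-free colon and 2 of 5 in germ-free ileum. Of all measured genes 3.23% and 0.698% were. The lymphocyte medians were -0.76 log2 in colon and -0.82 in ileum. Of 10 measured fibroblast and smooth muscle markers 4 were called lower in germ-free ileum, beside 0.698% of all measured genes. On the wild type arrays 5 of 10 were called higher in ileum than in colon, beside 6.04% of all measured genes.

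Regional markers also differed between the colon arrays. Of 6 measured markers listed as colonic all had a value below 0 in germ-free colon, with a median of -0.27 log2. Aqp8, a colonic water channel, read 76.4 against 545. Not all 6 marked colon on these arrays. Ang4 was 2.58-fold higher in ileum on the germ-free and 3.99-fold higher on the wild type arrays, and Muc2 was only 1.22-fold and 1.17-fold lower there. Of 6 measured ileal markers 5 had a value above 0 in germ-free colon, with a median of 0.21 log2. Fabp6, the ileal bile acid-binding protein, read 6008 on the germ-free colon array against 767 on the wild type one (7.83-fold higher). Not all of these marked ileum on these arrays either. Fabp2 was only 1.05-fold higher in ileum on the germ-free and 1.14-fold on the wild type arrays, and Mep1a 1.02-fold and 1.16-fold. The part of these marker differences in the values of Tlr4, Cd14, Tlr2 and Tlr5 was not tested.

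For the 4 members whose arrays spanned at least 2-fold, the genes with the nearest pattern over the 4 arrays were sought among 9963 genes above the floor on all arrays, as the smallest Euclidean distance between log2 values centred on each gene's mean. Values of Tlr2, Tlr4 and Tlr5 below the floor entered at the floor. Nearest to Tlr2 were Paqr8 (distance 0.30), Pparg (0.30) and Sycn (0.35), and nearest to Tlr5 were Gprc5a (0.14), Sppl2a (0.32) and Gabbr1 (0.34). Pparg read 876 in germ-free colon against 2215 in wild type colon and 176 in germ-free ileum against 188 in wild type ileum, and Gprc5a 312 against 577 and 142 against 120. Nearest to Tlr4 were Hsbp1l1 (0.48), Dbp (0.48) and Serpinb5 (0.51), and nearest to Cd14 were Arhgef39 (0.25), Atad5 (0.29) and Zfp119a (0.30). Dbp, a clock output gene, read 797 in germ-free colon against 249 in wild type colon, and 94.7 on both ileum arrays. With 4 arrays a near pattern is a description of these arrays alone.

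**Figure D5:**
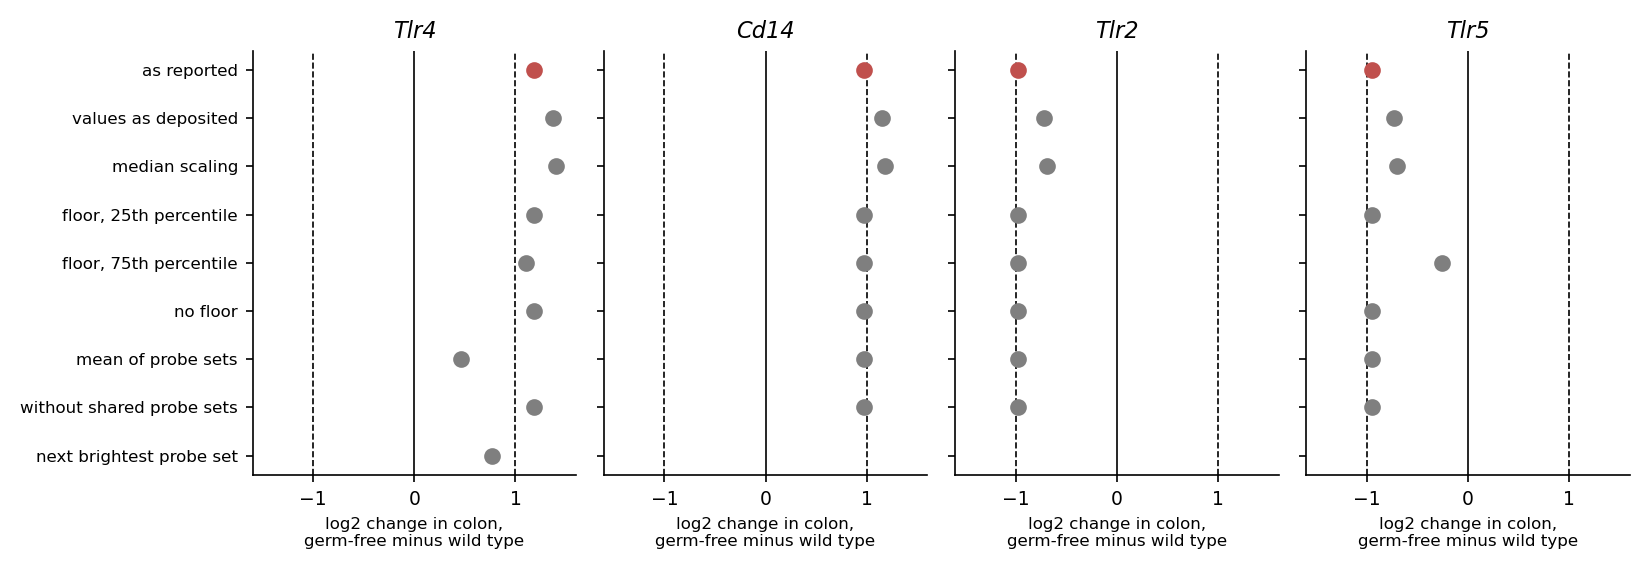
Log2 change in colon, germ-free minus wild type, of Tlr4, Cd14, Tlr2 and Tlr5 as reported (red) and under each other setting (grey), with dashed lines at 2-fold; genes with 1 probe set have no next brightest one, and the values of Tlr4 for the mean of probe sets and of Tlr4 and Tlr5 for the 75th percentile floor are lower bounds on the size. No setting turns the direction of any of the 4, Tlr4 leaves 2-fold with its next brightest probe set or the mean of its probe sets, and Cd14 passes 2-fold as deposited or with median scaling.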

How the data were processed

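Epithelial cells of 4 groups were profiled on short-oligonucleotide mouse arrays, 1 array per group. Per the series' design text, sections of 10 µm were cut, amplification took 2 rounds and began with 40 ng of RNA, and the authors analysed the arrays with dCHIP2004. Each deposited value is a linear intensity per probe set. The sources used here name no background, model or normalization options. There are 45101 probe sets, of which 64 are controls. On the 4 arrays between 1035 and 1112 of the other values were exactly 1.

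Here, log2 intensities were quantile-normalized after the controls were left out (numpy 2.4.6, pandas 2.3.3), since the medians of the brighter probe sets differed by 0.32 log2 between arrays. Lower values were raised to the pooled median (62.4), and a gene was taken as measured where 1 of the 2 arrays compared exceeded it. The probe set with the highest mean log2 stood for its gene. Names came from the platform annotation, with 34945 probe sets of 1 symbol, 932 of several (not used) and 9160 unnamed here. Of the first kind 34741 had an identifier in a RefSeq table of GRCm38.p6, and 0 symbols changed.

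Comparisons were differences of log2 values, germ-free minus wild type and ileum minus colon, called at 2-fold. With 1 array per group no test was possible. The steps were tested on simulated data. Genes named beside the members were those of each pathway list past 2-fold with the brighter array above the pooled 75th percentile (259), otherwise the one with the largest change, and the 3 nearest patterns per member that spanned 2-fold. Outside that rule, Irak1, Traf6, Ticam1, Rela, Tnfaip3, Tnfaip2 and Pigr were named after their values were seen. So were Cxcl1 in the germ-free comparisons, Ptgs2 in colon, Gadd45b on the germ-free arrays, the other Toll-like receptors and the dim NF-κB targets. The members and lists were chosen with earlier results of these data known. In all, 8 alternatives were tried.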

Additional observations from a re-analysis of the deposited data

How the results depend on the processing

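Directions of the colon changes of Tlr4, Cd14, Tlr2 and Tlr5 were the same under every alternative run. Tlr4 was at least 0.46 log2 with the mean of its probe sets (0.79 with no floor), 0.77 with the next brightest one and up to 1.40 with median scaling, and Cd14 between 0.98 and 1.18. The count of members at least 2-fold higher in germ-free colon, 1 as reported, was 0 when probe sets were averaged and 2 as deposited or with median scaling. Of all measured genes 1.29% were higher there as reported, 1.20% averaged, 2.50% as deposited and 2.66% with median scaling. In ileum the member count was 1 instead of 0 when the floor was the 25th percentile or absent (Tlr5, 1.98 log2). The share of all measured genes was then 0.925% and 4.87%, against 0.23% as reported. With a floor at the 75th percentile 1 member instead of 3 was at least 2-fold lower in wild type ileum than colon.

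Wider pathway counts moved mainly with the floor. Higher in germ-free colon were 0 genes as reported, 2 (25th percentile) and 4 (no floor); lower were 4 as reported, 7 with no floor, 1 (75th percentile) and 2 when probe sets open to several transcripts were left out. In ileum 0 became 1 (25th percentile) and 5 (no floor) higher, and 2 (25th percentile), 4 (no floor) and 1 (mean of probe sets) lower. Between ileum and colon on germ-free arrays 6 higher became 11 (25th percentile), 2 (75th percentile) and 13 (no floor), and 7 lower became 11 with no floor or as deposited. On wild type arrays 8 lower became 5 with a floor at the 75th percentile. The shares of all measured genes moved as well. Higher in germ-free colon were 1.29% as reported, 2.59% (25th percentile) and 6.76% (no floor), and in germ-free ileum 0.23%, 0.925% and 4.87%. Higher in ileum than colon on germ-free arrays were 7.37% as reported, 8.66% (25th percentile), 5.71% (75th percentile) and 12.6% (no floor). Shares of lower genes under the other floors are not given here. Fewer or more genes are measured as the floor moves; the causes of the other shifts were not tested. The median of all measured genes in colon was -0.01 log2 as reported and 0.12 with median scaling. Of the genes called in colon 28.6% were higher as reported, 51.8% as deposited and 56.3% with median scaling; for ileum against colon on germ-free arrays the shares were 55.6%, 38.5% and 42.4%. The unfloored Tlr4 mean, the myeloid sums without Lyz2 and Cd74 and the list medians under each scaling were chosen after seeing the data. Leaving out a replicate or pairing replicates could not be done with 1 array per group. No paired analysis was possible because each group has 1 array. Genes near or below the floor, here Tlr2 and Tlr4 in ileum and Tlr5 in wild type ileum, have only bounds.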
